A study of Mus musculus with 6 samples.

Results

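The IFIT genes Ifit1, Ifit2 and Ifit3 and the effectors Ifi44, Ifi27, Rsad2, Bst2, Rtp4, Usp18 and Isg15 are interferon-stimulated genes outside the OAS and GTPase families. They were taken by gene symbol, and each of the 10 matched 1 gene among the 41838 of the deposited table. The list was chosen by earlier FPKM values of these same HKO and flox libraries, so the differences between the groups are described for these genes and not tested. RNA was measured by poly(A) RNA sequencing in 6 mouse livers. Of these, 3 came from Alkbh5-HKO mice, which the sample titles also write as Alkbh5-CKO, and 3 from Alkbh5flox/flox mice (flox below). Both groups were on normal chow, and the age is given as 9 weeks. The sources used here give neither the meaning of HKO nor the Cre driver or sex, so the cells that lost the gene are not stated. Alkbh5 encodes an enzyme that erases N6-methyladenosine, a methyl mark on RNA.

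Type I and type III interferons act through receptors and Janus kinases on transcription factors that bind the interferon-stimulated response element in target promoters. The targets include proteins that bind foreign RNA, block virus assembly or release, and tag other proteins with the ubiquitin-like ISG15. Some, such as Usp18, feed back on the receptor. In liver, hepatocytes as well as resident macrophages and endothelium are able to respond.

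The upstream sequences are shown as a description, and their letters were not used to choose the genes. The genes were however taken as interferon-stimulated, a class whose promoters carry the response element. Its presence is therefore not independent of that choice. RefSeq promoter windows on GRCm38.p6 were found for 7 of the 10 genes, and Ifi27, Rtp4 and Usp18 had none. The core of the response element was searched as GAAANNGAAA on both strands in the 250 bases before each start, and TTTCNNTTTC is its form on the other strand. It was present upstream of Ifit1, Ifit3, Rsad2, Bst2 and Isg15, that is 5 of 7 genes, whereas 3.46% of the 27025 genes with a window held it. Ifi44 and both RefSeq starts of Ifit2 had no match in this window. The deposited table begins Ifit2 at 34550549 and Ifit3 at 34583142, before the RefSeq starts used here. The Ifit3 stretch below therefore lies inside the gene span of that table. Bases further upstream than these windows were not searched. Each line below gives bases 170 to 51 before the RefSeq start, 5′ to 3′ on the gene's strand, with matches in capitals.
Ifit1, chr19:34640719-34640838, plus strand: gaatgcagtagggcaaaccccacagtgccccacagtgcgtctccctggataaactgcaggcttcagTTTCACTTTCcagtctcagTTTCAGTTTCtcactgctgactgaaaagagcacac
Ifit3, chr19:34583359-34583478, plus strand: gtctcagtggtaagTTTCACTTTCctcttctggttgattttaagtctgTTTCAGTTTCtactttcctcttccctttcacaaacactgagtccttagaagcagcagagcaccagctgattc
Rsad2, chr12:26456503-26456622, minus strand: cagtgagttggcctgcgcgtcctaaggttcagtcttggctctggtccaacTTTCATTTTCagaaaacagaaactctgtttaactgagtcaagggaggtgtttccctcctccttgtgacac
Bst2, chr8:71537523-71537642, minus strand: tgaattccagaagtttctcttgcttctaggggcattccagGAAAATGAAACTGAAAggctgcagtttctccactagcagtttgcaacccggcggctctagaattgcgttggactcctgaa
Isg15, chr4:156200869-156200988, minus strand: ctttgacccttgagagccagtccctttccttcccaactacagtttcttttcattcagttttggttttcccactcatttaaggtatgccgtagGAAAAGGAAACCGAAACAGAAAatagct
Ifi44, chr3:151749961-151750080, minus strand: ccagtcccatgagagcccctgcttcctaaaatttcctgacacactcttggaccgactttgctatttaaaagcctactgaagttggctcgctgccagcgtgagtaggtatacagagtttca

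Ifit1 and Ifit3 held the same pair of matches, TTTCACTTTC followed by TTTCAGTTTC. They began 104 and 85 bases before the start of Ifit1 and 156 and 122 bases before that of Ifit3. Either 10-base string, on either strand, occurs upstream of 0.207% of the 32851 windows. In Bst2 a pair of matches overlapped, from 130 to 115 bases before the start, and in Isg15 3 overlapped, from 78 to 57. Among other interferon lists, 4 of 6 OAS genes and 9 of 10 interferon GTPases with a window held the motif, as did 6 of 32 further effectors and 0 of 10 RNA and DNA sensors. The motif was also upstream of 3 of 6 relatives of the effectors, 0 of 5 ISG15 conjugation genes, 3 of 18 genes from receptors to IRF factors and 5 of 11 interferon genes. A match is a description of these letters and not a measured binding site.

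**Figure D1:**
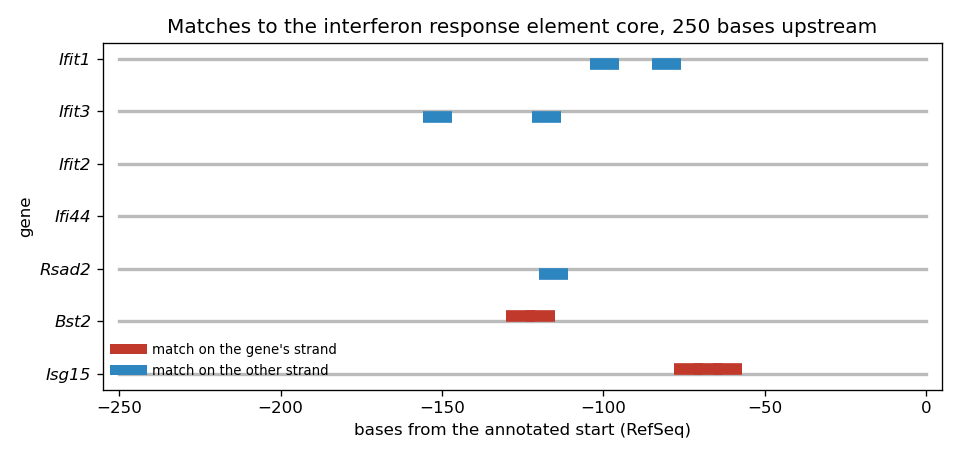
Positions of the response element core within 250 bases before the RefSeq start of the 7 effectors with a promoter window. The x axis is in bases from the start, red bars are matches on the gene's strand and blue bars matches on the other strand. Ifit1 and Ifit3 have 2 separate matches each, Rsad2 has 1, and Ifit2 and Ifi44 have none; for Ifit2 both starts lack one and 1 line stands for both.

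Levels are given as FPKM, fragments scaled to gene length and library size, the unit of the deposited table. Fold differences are HKO over flox ratios of mean FPKM, or differences in log2(FPKM + 1), HKO minus flox, with their standard error (SE) from limma fitted over the 10453 genes whose mean FPKM reached 1. The added 1 makes the log2 difference smaller than the ratio for genes of low level. Recovered depth was 14907384 to 17034754 reads per library, and the effectors other than Isg15 held 34 to 4913 reads in a library. Alkbh5 itself was at 0.508, 0.443 and 0.476 FPKM in HKO livers 1 to 3, against 17.8, 16.8 and 14.8 FPKM in flox livers 1 to 3. HKO library 1 lay apart on the first principal component, at 38.6, against 15.7 and 4.51 in the other HKO libraries and -22.7 to -13.7 in flox libraries. Its share of mitochondrially encoded reads was 5.67%, against 4.35% to 4.68% in the other HKO libraries and 3.66% to 4.38% in flox. The labels name independent biological replicates.

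All 9 effectors that passed the filter had a higher mean in HKO livers, with a median log2 difference of 1.36 beside -0.02 over all genes tested. In 8 of the 9 the groups did not overlap, where 12.8% of all genes tested were separated in that direction. Rsad2 was the one that overlapped. By limma with Benjamini-Hochberg (BH) adjustment at 0.05 over all genes, Ifit3, Ifi44 and Rtp4 were called higher, that is 3 of 9 beside 0.268% of all genes tested. Over all genes 0.22% were called lower and 0.488% in either direction. Since this contrast was known when the genes were picked, nothing is read from these counts. Isg15 did not pass the filter and is described last. Outside the IFIT cluster, the deposited table (GRCm38.p6) places Ifi44 at chr3:151730922-151749959, Rsad2 at chr12:26442743-26456452 and Bst2 at chr8:71534259-71537437, all on the minus strand. It places Ifi27 at chr12:103434182-103440245, Rtp4 at chr16:23601293-23614222 and Usp18 at chr6:121245906-121270917 on the plus strand, and Isg15 at chr4:156199424-156200818 on the minus strand.

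The IFIT proteins carry tetratricopeptide repeats and bind RNA, and IFIT1 holds viral RNA whose cap lacks the host's methyl marks. Ifit1 was at 21.7, 8.29 and 13.8 FPKM in HKO livers 1 to 3, against 5.69, 5.38 and 3.36 FPKM in flox livers 1 to 3. HKO liver 1 was the highest, and HKO liver 2 stood only 1.46 times above the highest flox liver. The ratio of means was 3.04 and the log2 difference 1.36 (SE 0.33). Ifit3, whose human counterpart stabilises IFIT1 on RNA, was at 20.3, 11.9 and 16.05 FPKM in HKO livers, against 5.16, 5.57 and 3.85 FPKM in flox livers. The order of the HKO libraries was that of Ifit1, and the lowest was 2.13 times the highest flox library. Its ratio of means was 3.30 and its log2 difference 1.52 (SE 0.21). Ifit2, an RNA-binding member of the same family, was low in both groups, at 3.38, 1.96 and 2.31 FPKM in HKO livers, against 0.702, 0.603 and 0.816 FPKM in flox livers. The groups were well apart, with a ratio of 3.61 and a log2 difference of 1.04 (SE 0.17).

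These genes lie together on chromosome 19 (GRCm38.p6), where 99.5 kb from 34550549 to 34650009 hold Ifit2, Ifit3, Ifit3b, Ifit1bl2, Ifit1 and the pseudogene Cnn2-ps, with Ifit1bl1 reaching beyond. Ifit3b is a near copy of Ifit3, with 99.1% identical bases over 1212 aligned coding bases (GENCODE M21), whereas Ifit1, Ifit2 and Ifit3 share 60.5% to 64.7% with each other. Of the distinct 150-base stretches of Ifit3 transcripts, the length of a sequenced read, 18.5% occur unchanged in Ifit3b transcripts. The values of Ifit3 and Ifit3b are therefore uncertain where reads were shared, since how reads with several matches were treated is not known from the sources used. Ifit3b was at 5.90, 2.53 and 5.14 FPKM in HKO livers, against 1.24, 1.64 and 1.28 FPKM in flox livers. The Ifit3 to Ifit3b ratio was 3.12 to 4.69 in HKO libraries and 3.01 to 4.16 in flox libraries, so the ratio ranges overlapped. The minus-strand relatives were near the floor of the data: Ifit1bl1 held 10 to 13 reads in HKO and 3 to 6 in flox libraries, and Ifit1bl2 held 3 to 9 in HKO and 0 to 5 in flox libraries. Ifit1bl1 spans the whole of Ifit1 and Ifit3b on the other strand.

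**Figure D2:**
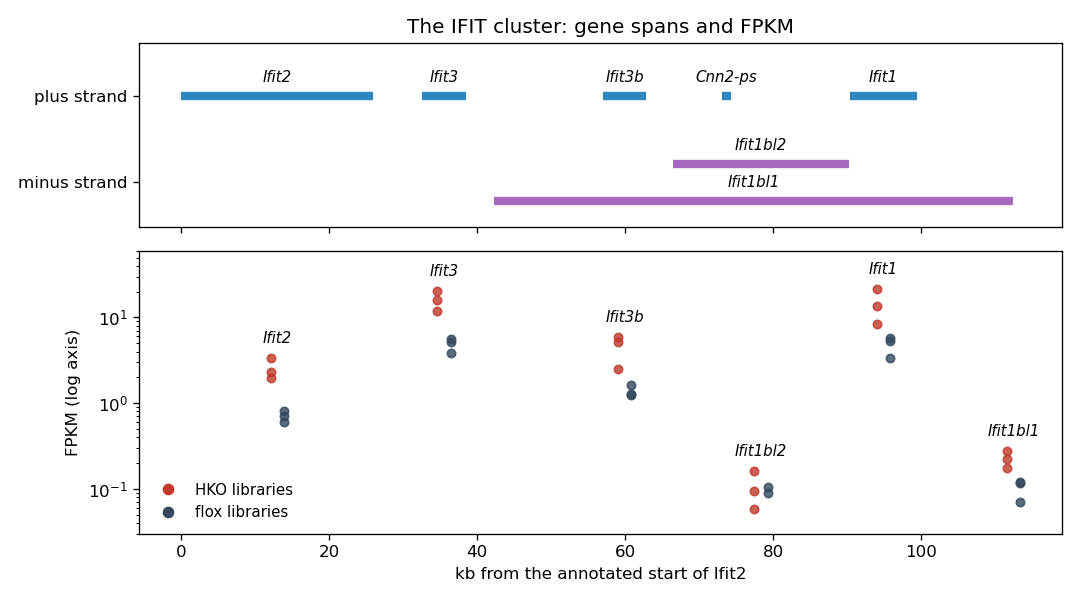
The IFIT cluster, drawn in kb from the start of Ifit2 in the deposited table. Gene spans by strand are above and FPKM on a log axis is below, each point 1 library (red HKO, dark flox). Ifit2, Ifit3, Ifit3b, Ifit1 and the very low Ifit1bl1 are separated between the groups, and Ifit1bl2 overlaps. Ifit1bl1 is placed at its right end, and 1 flox value of Ifit1bl2, at 0, cannot be drawn on this axis.

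Rsad2 encodes viperin, a radical SAM enzyme that makes a nucleotide which ends viral RNA chains. It was at 4.51, 1.96 and 3.66 FPKM in HKO livers, against 2.96, 2.93 and 1.77 FPKM in flox livers. HKO liver 2 fell among the flox livers, and the log2 difference of 0.27 (SE 0.26) was about the size of its error. Ifi44, an interferon-induced cytoplasmic protein, had the largest difference of the 9, at 19.4, 8.59 and 7.45 FPKM in HKO livers, against 1.24, 0.841 and 1.18 FPKM in flox livers. The lowest HKO liver was 6.03 times the highest flox liver. Its ratio of means was 10.9 and its log2 difference 2.51 (SE 0.32). Its neighbour and relative Ifi44l was listed at 0 in every library.

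Ifi27, a small hydrophobic protein that its human counterpart places in mitochondrial membranes, was at 164, 121 and 95.3 FPKM in HKO livers, against 74.8, 71.7 and 67.8 FPKM in flox livers. The HKO livers spread over 1.72-fold and the flox livers over 1.10-fold. The ratio of means was 1.77 and the log2 difference 0.78 (SE 0.21). In the deposited annotation Ifi27l2a overlaps the whole of Ifi27 on the opposite strand, and the strand setting of the counting is not given, so reads of the 2 cannot be told apart where exons overlap. Ifi27l2a was at 7.78, 8.46 and 8.99 FPKM in HKO livers, against 4.14, 3.59 and 6.43 FPKM in flox livers. Ifi27l2b, 89.4% identical to it over 273 coding bases, was at 12.7, 17.2 and 13.6 FPKM in HKO livers, against 7.78, 4.003 and 3.56 FPKM in flox livers. Both were separated higher in HKO livers, as were 12.8% of all genes tested. Neither passed over all genes (limma with BH adjustment, adjusted p = 0.127 and 0.0731).

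Bst2 encodes tetherin, which holds budding virus particles at the cell membrane. It was the most abundant effector per length and the one with the smallest ratio after Rsad2. Its level was 262, 348 and 330.0 FPKM in HKO livers, against 206, 220.2 and 259.7 FPKM in flox livers. HKO liver 1 and flox liver 3 were almost level, at a ratio of 1.01. The ratio of means was 1.37 and the log2 difference 0.45 (SE 0.17). Rtp4, a chaperone of receptors on their way to the cell surface, was at 27.0, 19.7 and 19.1 FPKM in HKO livers, against 7.68, 6.93 and 8.73 FPKM in flox livers. It had the narrowest spread after Bst2 within HKO livers, 1.42-fold. Its ratio of means was 2.82 and its log2 difference 1.37 (SE 0.17). Of its family, Rtp3 was at 8.53, 10.04 and 11.9 FPKM in HKO livers, against 17.1, 18.9 and 17.0 FPKM in flox livers. It was thus the one separated relative that was lower in HKO livers, at a log2 difference of -0.75 (SE 0.15, limma with BH adjustment, adjusted p = 0.0763). Rtp1 and Rtp2 were listed at 0 in all libraries. Of the 150-base stretches of Rtp4 transcripts, 6.92% also occur in the transcript named Gm45338.

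**Figure D3:**
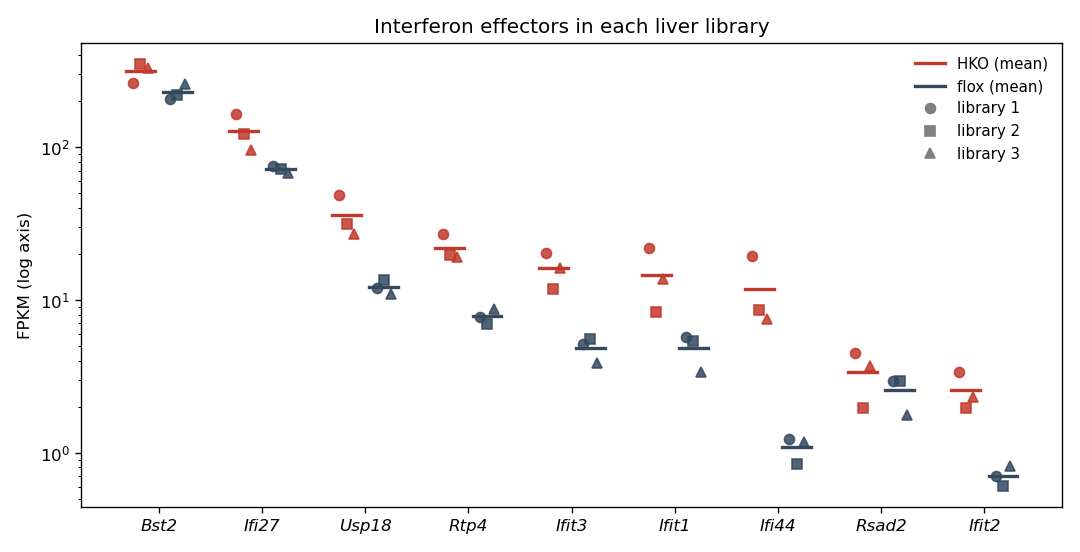
FPKM of the 9 effectors above the filter in each library on a log axis, with HKO left of flox and bars at the group means (n = 3 each). All genes but Rsad2 are separated between the groups, Bst2 by the narrowest margin, and HKO library 1 (circle) is the highest HKO library in every gene but Bst2.

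Usp18 removes ISG15 from proteins and also dampens signalling at the interferon receptor. It was at 48.8, 31.4 and 26.8 FPKM in HKO livers, against 11.9, 13.6 and 10.9 FPKM in flox livers. The lowest HKO liver was 1.97 times the highest flox liver. The ratio of means was 2.94 and the log2 difference 1.44 (SE 0.23). The enzymes that attach ISG15 were separated in the same direction, as were 12.8% of all genes tested. The activating enzyme Uba7 was at 12.9, 15.9 and 9.83 FPKM in HKO livers, against 5.47, 6.01 and 6.12 FPKM in flox livers. The conjugating enzyme Ube2l6 was at 103, 83.9 and 72.0 FPKM in HKO livers, against 40.7, 42.6 and 40.2 FPKM in flox livers. The ligase Herc6 was at 7.86, 4.63 and 4.66 FPKM in HKO livers, against 2.18, 2.33 and 2.42 FPKM in flox livers. Of the 4 tested genes of the ISG15 conjugation list, 0 passed over all genes by limma with BH adjustment, 3 had an unadjusted p under 0.05 and 3 passed by voom on recovered reads. Over all genes tested, 17% had an unadjusted p under 0.05 and 1.15% passed by voom. Ube2l6 had a BH adjusted p of 0.0525 and a log2 difference of 1.04 (SE 0.16). The deubiquitinase Usp24 was the member below 0, at a log2 difference of -0.06 (SE 0.16), and its sign turned under TPM, voom and rescaling to recovered reads.

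Isg15, the modifier itself, was all but absent from the table. It held 0 reads in HKO livers 1 to 3, and 0, 1 and 0 reads in flox livers 1 to 3. A count of 0 allows up to 3 reads for counting error. With an annotated length of 756 bases, that limit was 0.216 to 0.265 FPKM in HKO libraries. In flox libraries 1 and 3 it was 0.246 and 0.242 FPKM. Flox library 2 held 1 read, so its limit lies above the 0.286 FPKM that 3 reads make there. The enzymes that attach ISG15 and Usp18 were measured at levels well above these values in every library. The predicted gene Gm9706, a misc_RNA in the deposited table whose span lies wholly opposite Zfp318, held 2, 0 and 6 reads in HKO livers and 0, 1 and 1 in flox livers. The lncRNA LOC108168990, picked after its values were seen because it overlaps 776 bases of Isg15 on the other strand, held 2, 10 and 2 reads in HKO livers and 1, 8 and 4 in flox livers. None of the 607 distinct 150-base stretches of the GENCODE Isg15 transcript occurs in a transcript of another GENCODE gene, but Gm9706 was not among those transcripts, so sequence it shares with Isg15 was not measured. How reads with several matches or on overlapping genes were counted was not tested here. The values of Isg15 therefore give no direction between the groups.

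By level per length, the order in HKO livers was Bst2, Ifi27, Usp18, Rtp4, Ifit3, Ifit1, Ifi44, Rsad2 and Ifit2, with means of 314, 127, 35.7, 21.9, 16.1, 14.6, 11.8, 3.38 and 2.55 FPKM. From Usp18 to Ifi44 each gene's libraries overlapped those of the next, as did Rsad2 and Ifit2. In flox livers the means were 229 FPKM for Bst2, 71.4 for Ifi27, 12.1 for Usp18, 7.78 for Rtp4, 4.86 for Ifit3, 4.81 for Ifit1, 2.56 for Rsad2, 1.08 for Ifi44 and 0.707 for Ifit2. There, only the neighbours Ifit3 and Ifit1 overlapped. Ifi44 thus stood above Rsad2 in HKO livers and below it in flox livers. Bst2 made up 45.9%, 63.0% and 64.1% of the summed FPKM of the effectors in HKO livers 1 to 3, against 65.2%, 67.2% and 72.5% in flox livers 1 to 3. Without Bst2 that sum was 309, 205 and 184 FPKM in HKO livers and 110.2, 107 and 98.4 FPKM in flox livers. Each HKO library lay above each flox library, and HKO liver 1 stood well above the other two.

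The spread inside the groups was examined next, after the difference of the group means was taken out. It is not free of the levels. At low FPKM the added 1 shrinks deviations, more in flox than in HKO livers for Ifi44 and Ifit2. Ifit2 also passed the filter only through its HKO values. Deviations of log2(FPKM + 1) from the group mean were taken for each library. HKO liver 1 was the highest HKO library in 8 of 9 effectors, where 39.9% of all genes tested were highest in it, and Bst2 was the exception. The effectors split on the lowest HKO library. HKO liver 2 was lowest for Ifit1, Ifit2, Ifit3 and Rsad2, and HKO liver 3 for Ifi44, Ifi27, Rtp4 and Usp18. Ifit1, Ifit3 and Rsad2 also shared a low flox liver 3, and their pairs had the highest correlations of deviations over the 6 libraries (r = 0.97 to 0.98). Ifi27 and Usp18 followed (r = 0.94), then Ifi44 and Rtp4 (r = 0.93). Bst2 ran against all 8 others, with r from -0.93 to -0.44. Over the 36 pairs the median r was 0.59, and over the 28 pairs without Bst2 it was 0.68. These values rest on HKO library 1: without it the median over the 36 pairs was -0.13.

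**Figure D4:**
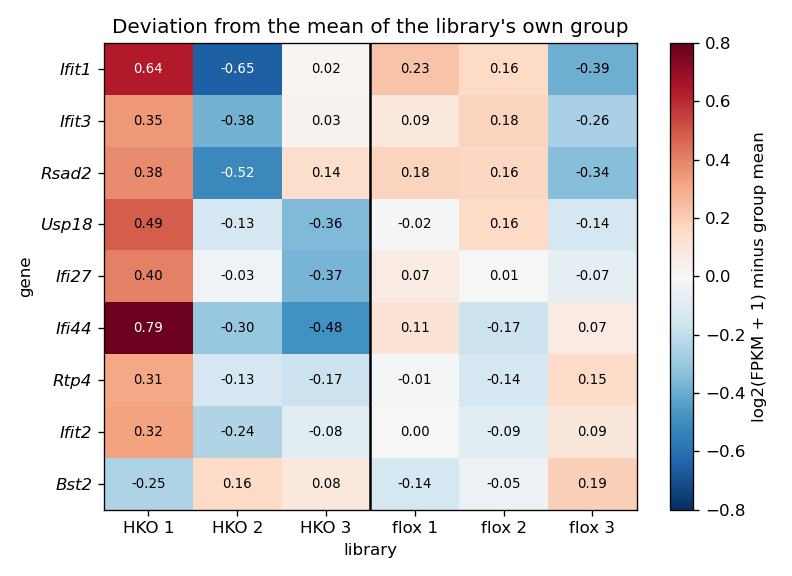
Deviation of log2(FPKM + 1) from the mean of the library's own group for 9 effectors (rows) in 6 libraries (columns, HKO left of the line, flox right). HKO library 1 is above its group mean in every row but Bst2, Ifit1, Ifit3 and Rsad2 are lowest in HKO library 2, and Ifi44, Ifi27, Rtp4 and Usp18 are lowest in HKO library 3.

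The common pattern inside the groups was not limited to interferon genes. The 8 protein-coding genes outside the list whose deviations were most like the mean deviation of the effectors over the 6 libraries were Tmem123, Acbd5, Apc, Sar1b, Chuk, Fig4, Trip11 and Yme1l1. Their log2 differences were -0.21 to 0.33, and the groups overlapped in all of them but Fig4. Of all genes tested, 8.24% had r over 0.9 with that mean deviation, 861 genes in all. With 6 libraries in 2 groups and 1 library that stands apart, such a value is common in these data.

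Other genes of the pathway were taken from lists by function, chosen with earlier results of these data known. Their counts and adjusted p values are therefore no independent support for the differences of the effectors. Of 31 tested further effectors, 27 lay above 0 and 4 below, with a median log2 difference of 0.51. Of the 31, 2 passed as higher, beside 0.268% of all genes tested. The poly-ADP-ribose polymerase family member Parp12 rose to 23.3, 20.9 and 19.0004 FPKM in HKO livers, against 11.0, 9.70 and 9.72 FPKM in flox livers (log2 0.99, SE 0.13, limma with BH adjustment, adjusted p = 0.0373). The endoplasmic reticulum protein Shisa5 rose to 20.5, 18.9 and 17.6 FPKM in HKO livers, against 8.32, 8.74 and 10.8 FPKM in flox livers (log2 0.96, SE 0.14, limma with BH adjustment, adjusted p = 0.0441). Both calls depended on the setting: Parp12 passed in 9 and Shisa5 in 7 of the 17 alternatives, and Shisa5 did not pass at a pseudocount of 0.1 (adjusted p = 0.0504) or under TPM (adjusted p = 0.0542). Ifitm3, which blocks virus entry at endosomes, was the most abundant of this list, at 1049, 890 and 751 FPKM in HKO livers, against 508, 514 and 584 FPKM in flox livers. It was separated and did not pass (log2 0.73, SE 0.17, limma with BH adjustment, adjusted p = 0.0992). Its relative Ifitm2 overlapped, at 123, 247 and 189 FPKM in HKO livers, against 193, 189 and 223 FPKM in flox livers.

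All 8 tested OAS genes and all 13 tested interferon GTPases lay above 0, with medians of 0.80 and 1.13. Of these, 3 OAS genes (Oas1c, Oas1g and Oas3) and 1 GTPase (Gbp8) had flox means under the filter and passed it only through their HKO values, so their direction was partly set by the filter. The same held for Ifit2 among the effectors, for Ddx60 among the further effectors and for Tlr3 among the RNA and DNA sensors. In the OAS list and in the GTPase list 1 gene each passed: Oasl2 and the guanylate-binding protein Gbp3. That is 1 of 8 and 1 of 13 called higher, beside 0.268% of all genes tested. Of 18 tested genes from receptors to IRF factors, 13 lay above 0 and 5 below, and the median was 0.19. The transcription factor Irf7 alone was called higher, 1 of 18 beside 0.268% of all genes tested. Oasl2 passed in 10 of 16 alternatives, Gbp3 in 11 of 17 and Irf7 in 10 of 17. The transcription factors Stat2 and Irf9 overlapped between the groups, with log2 differences of 0.27 and 0.28, and so did the receptor chains Ifnar1 (-0.08) and Ifnar2 (-0.07). Irf3, which acts before interferon is made, was lower in each HKO library, at 17.6, 22.7 and 22.6 FPKM in HKO livers, against 23.8, 29.9 and 30.3 FPKM in flox livers, and did not pass (log2 -0.40, SE 0.16, limma with BH adjustment, adjusted p = 0.271). Of 10 tested RNA and DNA sensors 8 lay above 0 and 2 below (median 0.56), 0 passed by limma with BH adjustment, 6 had an unadjusted p under 0.05 and 1 passed by voom, beside 17% and 1.15% of all genes tested.

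**Figure D5:**
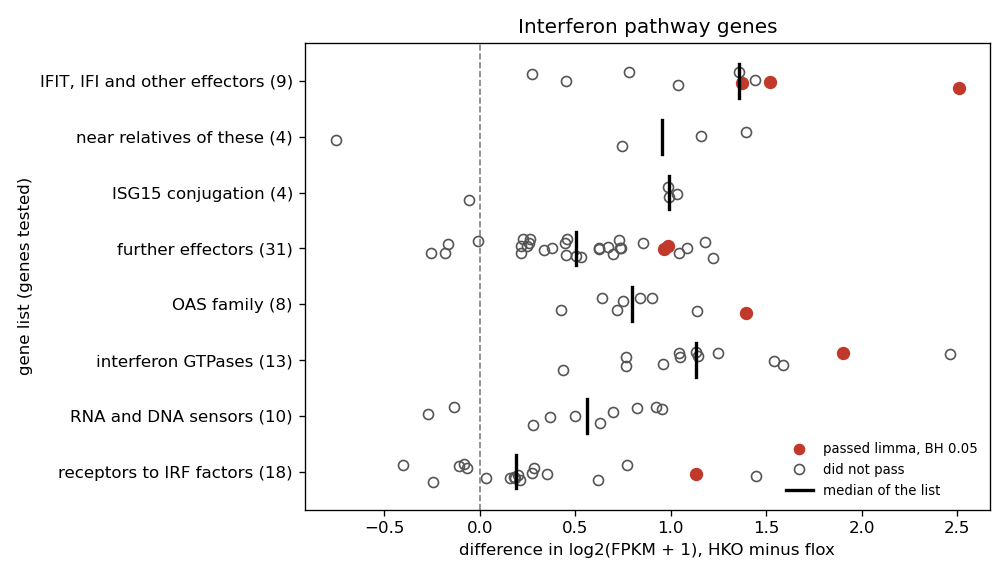
Difference in log2(FPKM + 1), HKO minus flox, of each tested interferon gene, by list, with the number tested in brackets. Filled points passed limma with BH adjustment at 0.05 and black bars are list medians, 1.36 for the effectors, 1.13 for the GTPases and 0.19 for receptors to IRF factors.

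Transcripts of the interferon genes looked up were at or near the floor. Of these 11 genes, 9 were listed at 0 in every library: Ifnb1, Ifna1, Ifna2, Ifna4, Ifna5, Ifna12, Ifne, Ifnl2 and Ifnl3. Other Ifna genes were not looked up. How reads with several matches were treated is not known from the sources used, so a listed 0 does not show absence. Ifnk and Ifng were the other two, and the summed level of the list was 0.0516 to 0.299 FPKM in HKO libraries and 0 to 0.278 FPKM in flox libraries.

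Markers of immune cells that could bring interferon-stimulated transcripts into bulk liver were measured beside these genes. In bulk tissue, fewer cells of a type and less RNA per cell cannot be told apart. The summed FPKM of 12 T and NK cell markers was 7.86 to 11.1 in HKO livers and 3.02 to 7.06 in flox livers, without overlap. By limma with BH adjustment or by voom, 0 of the 4 tested passed (2 with an unadjusted p under 0.05, beside 17% of all genes tested). Within this list Gzma, Gzmb and Nkg7 were separated higher, where 12.8% of all genes tested were separated in that direction. The rest overlapped, the Cd3 genes, Cd8a and Cd4 among them, and the mean of Cd4 was 0.232 FPKM in HKO livers against 0.357 in flox livers. Sums of 9 Kupffer cell markers overlapped, at 179 to 309.6 FPKM in HKO livers and 166 to 255 FPKM in flox livers. Those of 6 plasmacytoid dendritic cell markers, cells that make much interferon and express Bst2, also overlapped, at 0.603 to 1.26 FPKM in HKO livers and 0.580 to 0.632 FPKM in flox livers. Siglech, which defines them, was at 0.0535 to 0.0835 FPKM in HKO livers and 0.0326 to 0.116 FPKM in flox livers. The sums of 8 neutrophil and monocyte markers (4.96 to 7.54 FPKM in HKO livers and 1.40 to 9.65 FPKM in flox livers) and of 6 B cell markers (2.58 to 5.46 FPKM in HKO livers and 2.51 to 5.01 FPKM in flox livers) overlapped too. Within the first of these lists, Ly6c2, which marks monocytes, was at 3.41, 3.39 and 0.857 FPKM in HKO livers, against 0.730, 0.462 and 0.327 FPKM in flox livers, and Ccr2 was also separated higher. In the B cell list Ighm was separated higher, at 0.670, 0.914 and 1.12 FPKM in HKO livers, against 0.499, 0.483 and 0.491 FPKM in flox livers. The rest of the B cell list overlapped. S100a8 and S100a9 were highest in flox liver 1, at 3.79 and 3.78 FPKM, and lowest in flox liver 3, at 0.311 and 0.116 FPKM. Ly6g held 4 reads in flox liver 1 and 0 in every other library, flox or HKO. No marker of these lists was at 0 in every library. Erythroid markers moved the other way, at a sum of 104.9 to 209 FPKM in HKO livers and 352 to 674 FPKM in flox livers. All 5 tested were separated lower, as were 12.6% of all genes tested. Of these, 1 was called lower, Hbb-bt (log2 -1.95, SE 0.26, limma with BH adjustment, adjusted p = 0.0373), beside 0.22% of all genes tested. It passed in 12 of 17 alternatives. The hepatocyte list was at 51784 to 54989 FPKM in HKO livers and 46852 to 57646 FPKM in flox livers, so the tissue label held in every library. Its members did not move together. Alb, the most abundant, was separated higher in HKO livers, Apoa1 and Hnf4a were separated lower, and the others overlapped. The part of these cell types in the level of the effectors was not tested.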

How the data were processed

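RNA sequencing of 3 Alkbh5-HKO and 3 flox mouse livers was used from 1 deposited table. Per the series text, the authors aligned read pairs to GRCm38.p6 with HISAT2 2.0.5 and counted them with featureCounts 1.5.0-p3, while CASAVA and DESeq2 1.20.0 appear, with no role, in the submitters' processing notes. The values are FPKM, which the authors computed per gene and library. The sources used here name neither the annotation nor the strand or multiple-match settings. FPKM times the deposited gene length came out as whole multiples of 1 step for 100% of values above 0, within 0.001 of a read, widened in proportion for high counts, so reads were recovered. The authors' library size came to 0.925 to 1.08 of their sum.

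Genes whose mean FPKM reached 1 were tested by limma 3.58.1 (R 4.3.3, statmod 1.5.0; trend and robust options) on log2(FPKM + 1), HKO minus flox, with no covariate and BH adjustment at 0.05 over all 10453 genes. The test was tried first on simulated reads with known changes. The 10 effectors, the 213 listed symbols (211 found, 1 of them under an older symbol) and the tests were chosen with earlier results of these data known. The genes named were the effectors, their relatives and the 8 genes of most similar deviations. In each other interferon list those that passed and the 4 of highest mean FPKM were named, and in marker lists those that passed. Irf9, Ifnar1, Ifnar2, Siglech, Oas1c, Oas1g, Oas3, Gbp8, Ly6c2, Ccr2, S100a8, S100a9, Ly6g and LOC108168990 were added after their values were seen. So were Ddx60, Tlr3, Gzma, Gzmb, Nkg7, the Cd3 genes, Cd8a, Cd4, Ighm, Alb, Apoa1 and Hnf4a. Libraries of a group differed by a chi-square of 28.3 to 63.0 per degree of freedom, so none was a copy of another. Sequences are RefSeq and GENCODE M21 on GRCm38, handled with Biopython 1.88. Figures used matplotlib 3.10.9 under Python 3.11.15.

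Alternatives were the pseudocount, the filter, TPM, quantile and median-of-ratios scaling, plain eBayes, the replicate number as a block, voom on recovered reads and each library left out. Rescaling to the sum of recovered reads was chosen after seeing the data. One gene of the list from receptors to IRF factors is counted there but not reported by itself here.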

Additional observations from a re-analysis of the deposited data

How the results depend on the processing

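The log2 difference of each of the 9 tested effectors was above 0 in every setting that tested it, and their median was 0.95 with a pseudocount of 5 and at most 1.59, by voom. How many passed varied more. As reported, 28 genes were called higher and 23 lower, with 3 effectors and 5 other pathway genes among them. At a pseudocount of 0.1, 18 were higher. With no filter, 0 higher and 1 lower gene, 0 effectors and 0 other pathway genes passed by limma, with 2514 genes, 8 effectors and 57 pathway genes at an unadjusted p under 0.05. The replicate block gave 1, 8, 0 and 0, with 1585, 8 and 56 at an unadjusted p under 0.05. Voom on recovered reads gave 78, 42, 5 and 17. Leaving out single libraries gave 0 to 29 higher and 1 to 38 lower genes, 0 to 3 effectors and 0 to 7 other pathway genes. No effector passed without flox library 1 or 2 or HKO library 2 (7, 7 and 8 at an unadjusted p under 0.05). Rtp4 alone passed without flox library 3 and Ifi44 alone without HKO library 1. Those fits have fewer samples. The median effector difference was then 1.04 to 1.44, and the median within-group correlation -0.13 to 0.74, negative without HKO library 1.

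The deviations of same-numbered libraries had correlations of 0.153, -0.145 and -0.0514. With 3 libraries per group, such values cannot show whether same-numbered livers were paired. The sample titles give a number and no pairing, so it is not known whether the replicate block was needed. Signs turned in 6 other named genes close to 0; the cause was not tested. Usp24 was at 0.0148 under TPM, 0.0122 by voom and 0.0121 on the sum of reads, and -0.183 to 0.0115 with a library left out. Apc was at 0.0473, 0.0533 and 0.0380 in the same settings and -0.0784 to 0.0263 with a library left out. Chuk was at 0.00239 with a pseudocount of 5, 0.0134 with median-of-ratios and 0.0583 with quantile scaling, 0.0730 under TPM, 0.0711 by voom and 0.0693 on the sum of reads, and -0.221 to 0.131 with a library left out. Left-out libraries moved Ifitm2 over -0.398 to 0.102, Sar1b over -0.291 to 0.196 and Yme1l1 over -0.128 to 0.177. Isg15, the interferon genes, Ifi44l, Rtp1, Rtp2, Ifit1bl1 and Ifit1bl2 had too few reads to be tested.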

Other observations

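The interferon GTPases followed another order of libraries than the IFIT genes. Of the 13 tested, 12 were lowest among HKO livers in library 3, and 3 were highest in library 1, where 27.3% and 39.9% of all genes tested were. Tgtp1, a GTPase of this list, was at 10.3, 50.4 and 9.14 FPKM in HKO livers 1 to 3, against 1.83, 1.67 and 3.65 FPKM in flox livers 1 to 3. Iigp1, an immunity-related GTPase, was at 220.2, 359.9 and 149 FPKM in HKO livers, against 100.03, 96.3 and 111 FPKM in flox livers. HKO liver 2 was thus the highest for both, whereas it was the lowest HKO liver for Ifit1, Ifit2, Ifit3 and Rsad2. The DNA and RNA sensor Zbp1 was likewise highest in HKO liver 2, at 9.04, 20.96 and 8.88 FPKM in HKO livers, against 6.25, 5.63 and 5.22 FPKM in flox livers. These orders are descriptions of 3 libraries and were not tested.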
